A study of Homo sapiens with 17 samples.

Results

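The genes described here encode the mitochondrial ribosomal proteins. They were taken by name from a table of 27315 genes, as every symbol made of MRPL or MRPS, a number and an optional letter A to C, which gave 78 genes. All 78 were high enough to be tested, with deposited values between 6.78 and 11.79. Of these genes, 51 encode proteins of the large subunit, 26 encode proteins of the small subunit, and MRPS36 belongs to neither, since its protein has been assigned to the 2-oxoglutarate dehydrogenase complex. For 48 of the encoded ribosomal proteins a related bacterial ribosomal protein is known, which is called a bacterial relative here. Another 29 occur in mitochondrial ribosomes without a bacterial relative in this sense. The naming rule used no measured value, although the group was chosen with earlier results of these data known.

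RNA-seq of polyA RNA was made from 786-O cells, which were established from a human clear cell kidney tumour, have no functional VHL and express HIF2a, the transcription factor encoded by EPAS1. All cells carried a lentiviral CRISPR vector with a puromycin marker, so the controls shared infection and selection with the other groups. In the HIF2a experiment 3 libraries carried guide sg4 against HIF2a, 3 carried guide sg6 against HIF2a, and 3 carried the control guide labelled sgscr. In the USP37 experiment 3 libraries carried guide sg3 and 3 carried guide sg9 against USP37, a deubiquitinase that the study's title places upstream of HIF2a, and 2 carried the control guide. The control libraries of the USP37 experiment bear the replicate numbers 2 and 3. The labels speak of triplicates without saying whether these were separate infections, so p-values measure the spread between these libraries, which may be technical. The cells were populations selected with an antibiotic, and the labels name no single clone.

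The mitochondrial ribosome translates the few messenger RNAs made from mitochondrial DNA, all of which encode subunits of the respiratory chain and the ATP synthase. Its ribosomal RNAs are mitochondrial, whereas all of its proteins are encoded in the nucleus, translated in the cytosol and imported. Compared with its bacterial ancestors it has less RNA and more protein, and its large subunit is held against the inner membrane where the nascent chains are inserted. Promoters of these genes are known for binding sites of NRF1, of GABPA (also called NRF2) and of YY1, and MYC is known to bind many of them.

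Values are given on the deposited variance-stabilised scale, which runs like log2, so that a difference of 1 is close to a 2-fold change of abundance for well expressed genes. A gene was called changed where limma's moderated test, fitted to all 12484 genes that passed the filter on low values, gave an adjusted p (Benjamini-Hochberg) under 0.05. EPAS1 averaged 9.54 ± 0.14 with sg4 and 10.34 ± 0.20 with sg6, against 11.91 ± 0.13 in the HIF2a control (SD, n = 3 each). USP37 averaged 8.33 ± 0.10 with sg3 and 8.13 ± 0.14 with sg9 (SD, n = 3 each), against 9.24 ± 0.13 in the USP37 control (SD, n = 2). EPAS1 was also lower in the mean of the USP37 guides, with a log2 fold change of -0.72 (SE 0.12, adjusted p = 6.6e-05 by limma). Likewise, USP37 was lower in the mean of the HIF2a guides, at -0.44 (SE 0.12, adjusted p = 0.009 by limma). The renal marker PAX8 lay between 12.18 and 12.99 in all 17 libraries. The commonest value of the table is 5.14 and its lowest is 4.85. Of the leukocyte markers, PTPRC at 6.68 and CD3E at 6.78 were highest in USP37 control library 3, and reached 5.53 and 5.25 in the other 16 libraries. TYROBP reached at most 5.43 in any library, and CD14 and LYZ were highest in libraries of the HIF2a experiment, at 6.43 and 6.16. The T cell genes CD2, CD3D, CD3G and LCK, looked at after these values were seen, were also highest in USP37 control library 3, at 5.80 to 6.68. The HIF2a sg6 libraries 2 and 3 and the HIF2a control library 2 stood farther from their groups than the other libraries did. Sequencing depth is not recoverable from these values.

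With guides against USP37, messages for mitochondrial ribosomal proteins were broadly higher. In the mean of both guides 59 of 78 members rose and none fell, while 22.4% of all genes tested were called higher and 21.9% lower. The median log2 fold change of the members was 0.48, against 0.0060 for all genes tested. The 59 members that rose spanned log2 fold changes of 0.27 for MRPL16 to 1.33 for MRPL24, with 36 at 0.5 or more and 3 at 1 or more. Without USP37 control library 3, the one with T cell transcripts, 48 members rose and none fell, with a median of 0.52, and without control library 2 these were 46, none and 0.45. Shares of all genes tested are not given for fits with a library left out, here or below. A change in those counts therefore cannot be told apart from a change over all genes. Since RNA came from whole cultures, a higher level in every cell and a larger share of cells with a high level cannot be told apart.

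The mean over the 78 genes was 9.68, 9.68 and 9.75 in the sg3 libraries and 10.04, 10.10 and 10.22 in the sg9 libraries, against 9.37 and 9.45 in the USP37 control libraries. All 6 libraries with a USP37 guide were above both control libraries, and the 3 sg9 libraries were above the 3 sg3 libraries. Member by member, 53 of 78 were higher in every guide library than in either control library, and none was lower in every one, where 20% of all genes tested were higher and 21.2% lower in this way. The sg9 libraries lay wholly above the sg3 libraries for 52 members and wholly below them for 1, where 22.5% of all genes tested lay above and 20.2% below. Within replicate number 2 the mean of the guides was above the control for 78 of 78 members, with a median difference of 0.49. Within replicate number 3 it was above the control for 73 of 78 members, with a median difference of 0.50. Counts within replicate numbers were not made for all genes tested. Over all libraries, 6317 of 12484 genes tested had a positive log2 fold change in the mean of the USP37 guides.

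**Figure D1:**
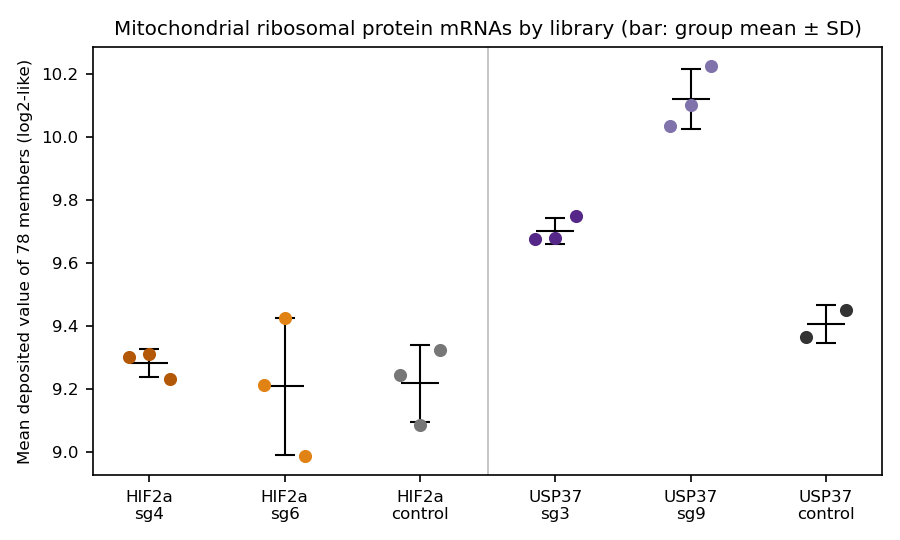
Mean deposited value (log2-like) of the 78 mitochondrial ribosomal protein genes in each library, by group; points are libraries and bars are group means ± SD (n = 3 per group, n = 2 for the USP37 control). The sg9 libraries sit at 10.04 to 10.22 and the sg3 libraries at 9.68 to 9.75, above the USP37 control libraries at 9.37 and 9.45, while the 3 groups of the HIF2a experiment overlap.

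The largest rise was that of MRPL24, a large-subunit protein beside the tunnel through which the nascent chain leaves. MRPL24 stood at 9.42, 9.72 and 9.97 in the sg3 libraries and at 10.60, 10.57 and 10.64 in the sg9 libraries, against 8.79 and 8.84 in the control libraries. No guide library overlapped a control library, and the sg9 libraries lay above the sg3 libraries. Its log2 fold change was 1.33 (SE 0.14, adjusted p = 2.26e-07 by limma) in the mean of the guides, 0.88 with sg3 and 1.79 with sg9.

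MRPS23, a small-subunit protein without a bacterial relative, was next. It stood at 9.87, 10.09 and 10.02 with sg3 and at 10.49, 10.89 and 11.04 with sg9, against 9.06 and 9.47 in the control. The groups were again separate, and the log2 fold change of the mean was 1.13 (SE 0.19, adjusted p = 6.44e-05 by limma). MRPS12, the relative of the bacterial protein S12 at the decoding centre, had 9.16, 9.47 and 9.47 with sg3 and 9.83, 10.06 and 10.37 with sg9, against 8.71 and 8.52 in the control. Its log2 fold change was 1.11 (SE 0.18, adjusted p = 4.65e-05 by limma). MRPS12 shares exon sequence on the opposite strand with SARS2, and libraries of the kit named in the labels do not keep the strand. SARS2, the mitochondrial seryl-tRNA synthetase, had a log2 fold change of 0.13 (SE 0.14, adjusted p = 0.487 by limma) in the same comparison.

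The large-subunit proteins MRPL52 and MRPL51, neither of which has a bacterial relative, completed the 5 largest rises. MRPL52 had 9.15, 9.22 and 9.40 with sg3 and 10.16, 10.48 and 10.55 with sg9, against 8.91 and 8.85 in the control. MRPL51 had 10.09, 10.23 and 10.43 with sg3 and 11.05, 11.38 and 11.48 with sg9, against 9.64 and 10.03 in the control. Both rose in the mean of the guides, by a log2 fold change of 0.95 (SE 0.15, adjusted p = 4.79e-05) for MRPL52 and 0.94 (SE 0.18, adjusted p = 0.000227) for MRPL51. For each of them the sg9 value carried the call, since the log2 fold changes with sg3 were 0.38 (adjusted p = 0.0891) and 0.41 (adjusted p = 0.108). MRPL51 shares exon sequence with NCAPD2 on the opposite strand.

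Promoter sequences, taken from RefSeq, were found for 69 of the 78 genes and are shown for the 5 genes with the largest rises and for MRPL44, which did not pass the test. Each runs 5′ to 3′ on the strand of the gene over 300 bases around its annotated start. The capitals mark matches, on either strand, to 3 motifs searched: GCGCA, any base and then GCGC for NRF1, CCGGAAG for GABPA and AAGATGGC for YY1. The coordinates are those of GRCh38.p14, with MRPL24 at chr1:156741039-156741338 and MRPS23 at chr17:57849995-57850294 on the minus strand, MRPS12 at chr19:38930694-38930993 on the plus strand, MRPL51 at chr12:6493213-6493512 on the minus strand, MRPL52 at chr14:22829637-22829936 on the plus strand and MRPL44 at chr2:223957213-223957512 on the plus strand.
MRPL24: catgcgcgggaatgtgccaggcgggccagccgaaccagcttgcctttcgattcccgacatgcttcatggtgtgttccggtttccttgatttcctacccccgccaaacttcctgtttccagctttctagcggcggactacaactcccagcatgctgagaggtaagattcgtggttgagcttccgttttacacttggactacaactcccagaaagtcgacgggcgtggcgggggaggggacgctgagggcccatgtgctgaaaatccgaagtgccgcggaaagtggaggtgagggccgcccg
MRPS23: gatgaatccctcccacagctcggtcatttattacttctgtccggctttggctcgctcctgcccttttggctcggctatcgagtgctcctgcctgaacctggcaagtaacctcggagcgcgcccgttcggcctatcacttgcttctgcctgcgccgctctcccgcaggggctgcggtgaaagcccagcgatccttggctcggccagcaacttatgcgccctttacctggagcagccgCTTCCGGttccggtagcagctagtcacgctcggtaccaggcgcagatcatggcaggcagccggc
MRPS12: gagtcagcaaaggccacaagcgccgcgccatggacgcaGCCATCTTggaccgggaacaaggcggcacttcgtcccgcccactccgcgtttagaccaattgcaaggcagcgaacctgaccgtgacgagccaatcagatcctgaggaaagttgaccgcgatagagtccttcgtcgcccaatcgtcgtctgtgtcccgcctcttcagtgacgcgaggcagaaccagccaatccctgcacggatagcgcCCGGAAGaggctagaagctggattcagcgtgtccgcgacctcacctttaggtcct
MRPL51: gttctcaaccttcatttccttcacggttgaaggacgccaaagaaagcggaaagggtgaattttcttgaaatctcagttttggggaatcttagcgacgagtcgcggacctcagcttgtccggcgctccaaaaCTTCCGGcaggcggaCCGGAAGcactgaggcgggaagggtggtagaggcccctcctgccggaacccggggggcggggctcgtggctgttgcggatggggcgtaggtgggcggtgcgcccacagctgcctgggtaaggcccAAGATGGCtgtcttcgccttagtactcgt
MRPL52: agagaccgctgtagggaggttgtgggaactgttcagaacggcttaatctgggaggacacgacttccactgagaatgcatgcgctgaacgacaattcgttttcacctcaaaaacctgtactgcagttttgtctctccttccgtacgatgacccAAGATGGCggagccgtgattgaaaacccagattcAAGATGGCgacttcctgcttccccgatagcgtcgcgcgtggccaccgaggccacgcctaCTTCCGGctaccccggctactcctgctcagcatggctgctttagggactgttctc
MRPL44: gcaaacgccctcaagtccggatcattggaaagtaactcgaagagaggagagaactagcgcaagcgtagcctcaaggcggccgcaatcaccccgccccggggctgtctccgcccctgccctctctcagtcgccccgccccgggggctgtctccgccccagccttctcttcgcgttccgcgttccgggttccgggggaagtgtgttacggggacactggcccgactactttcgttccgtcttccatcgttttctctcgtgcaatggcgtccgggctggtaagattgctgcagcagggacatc
The MRPL24 promoter, that of the largest rise, held none of these letters, as did the MRPL44 promoter. The MRPS23 promoter held 1 GABPA match. The MRPS12 promoter held 1 GABPA match and 1 YY1 match, the MRPL51 promoter held 2 and 1, and the MRPL52 promoter held 1 and 2. Among members that did not pass the test, MRPL45, chosen here for its matches, held 1 NRF1 and 1 YY1 match.

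Over the 69 promoters the GABPA letters were found in 42%, against 20.1% of the 9615 promoters of genes tested and 10.7% of all 27305 promoters. The YY1 letters were found in 29%, against 5.62% of the promoters of genes tested and 3.03% of all. The NRF1 letters were found in 11.6%, close to the 12.1% of the promoters of genes tested. The SP family letters GGGCGG were found in 60.9% of members against 71% of genes tested, and the letters ACGTG, the core bound by HIF, in 27.5% against 27.1%. The E-box CACGTG, bound by MYC among others, which always contains ACGTG, was found in 8.7% against 10.2%. Among the 53 members with a promoter that rose with the USP37 guides, 45.3% held the GABPA letters and 34% the YY1 letters. Among the 16 that did not pass the test, the shares were 31.2% and 12.5%. The NRF1 letters ran the other way, with 9.43% of the members that rose and 18.8% of those that did not pass, as did the SP family letters with 56.6% and 75% and ACGTG with 24.5% and 37.5%. The E-box was in 9.43% and 6.25%. These shares describe letters in a window and were not tested.

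By place in the ribosome, 41 of 51 large-subunit members and 18 of 26 small-subunit members rose in the mean of the USP37 guides, and none fell. Their median log2 fold changes were 0.58 and 0.45. Of the members with a bacterial relative 37 of 48 rose (median 0.53), and of those without one 22 of 29 rose (median 0.47). The difference between these classes was not tested.

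The stalk of the large subunit, which recruits the translation factors, is built from MRPL10 and copies of MRPL12 and stands beside MRPL11. MRPL12 had 10.52, 10.58 and 10.69 with sg3 and 11.15, 11.15 and 11.15 with sg9, against 10.12 and 10.38 in the control. It rose by a log2 fold change of 0.63 (SE 0.10, adjusted p = 5.09e-05 by limma). MRPL11 rose by 0.68 (SE 0.11, adjusted p = 5.12e-05) and MRPL10 by 0.58 (SE 0.12, adjusted p = 0.000444), both on the log2 scale. All 3 stalk genes passed the test with each USP37 guide taken alone.

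At the exit of the peptide tunnel the members differed. MRPL24, described above, and MRPL22 rose, MRPL22 by a log2 fold change of 0.56 (SE 0.10, adjusted p = 0.00022 by limma). MRPL23 had a log2 fold change of 0.22 (SE 0.09, adjusted p = 0.0614), and MRPL45, which ties the ribosome to the inner membrane, had one of 0.22 (SE 0.11, adjusted p = 0.112). MRPL44, a protein with a fold like that of ribonuclease III, had 9.48, 9.50 and 9.40 with sg3 and 9.75, 9.56 and 9.81 with sg9, against 9.51 and 9.67 in the control. The control libraries lay above the sg3 libraries and overlapped the sg9 libraries, and the log2 fold change was -0.0062 (SE 0.09, adjusted p = 0.963).

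Of the small-subunit members named for their role, each passed the test. MRPS34, in which mutations cause a combined respiratory chain deficiency, had 10.20, 10.26 and 10.56 with sg3 and 10.98, 10.92 and 11.13 with sg9, against 9.92 and 9.72 in the control. Its log2 fold change was 0.85 (SE 0.13, adjusted p = 2.43e-05 by limma). MRPS7, a protein of the head of the subunit, rose by 0.63 (SE 0.10, adjusted p = 5.18e-05) and MRPS16 by 0.47 (SE 0.09, adjusted p = 0.000213) on the log2 scale. MRPS27, a pentatricopeptide repeat protein, had 10.37, 10.34 and 10.39 with sg3 and 10.33, 10.32 and 10.44 with sg9, against 9.95 and 9.98 in the control. Its log2 fold change of 0.40 (SE 0.08, adjusted p = 0.000733) was also the value with sg3 and with sg9.

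The MRPS18 genes descend from one bacterial protein, S18, and their products take different places. MRPS18A, whose protein sits in the large subunit, rose by a log2 fold change of 0.73 (SE 0.10, adjusted p = 1.46e-05 by limma). MRPS18B rose by 0.50 (SE 0.10, adjusted p = 0.000287) and MRPS18C by 0.56 (SE 0.18, adjusted p = 0.0139). Without USP37 control library 2 the MRPS18C value was 0.36 and its adjusted p was 0.25. MRPS30, another large-subunit protein despite its name, rose by 0.30 (SE 0.08, adjusted p = 0.00656), with an adjusted p of 0.0679 without USP37 control library 3. MRPS36 was the lowest of the genes named here, at 6.98, 7.17 and 7.24 with sg3 and 7.29, 7.67 and 8.13 with sg9, against 7.13 and 6.98 in the control. Its log2 fold change of 0.36 (SE 0.17) did not pass the test (adjusted p = 0.0927).

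The 19 members that did not pass the test in the mean of the USP37 guides had log2 fold changes between -0.03 and 0.42. They were MRPL14, MRPL19, MRPL23, MRPL32, MRPL33, MRPL39, MRPL44, MRPL45, MRPL48, MRPL53, MRPS5, MRPS9, MRPS14, MRPS17, MRPS21, MRPS28, MRPS31, MRPS35 and MRPS36. They include members of both subunits. Over all 78, 76 had a positive value.

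**Figure D2:**
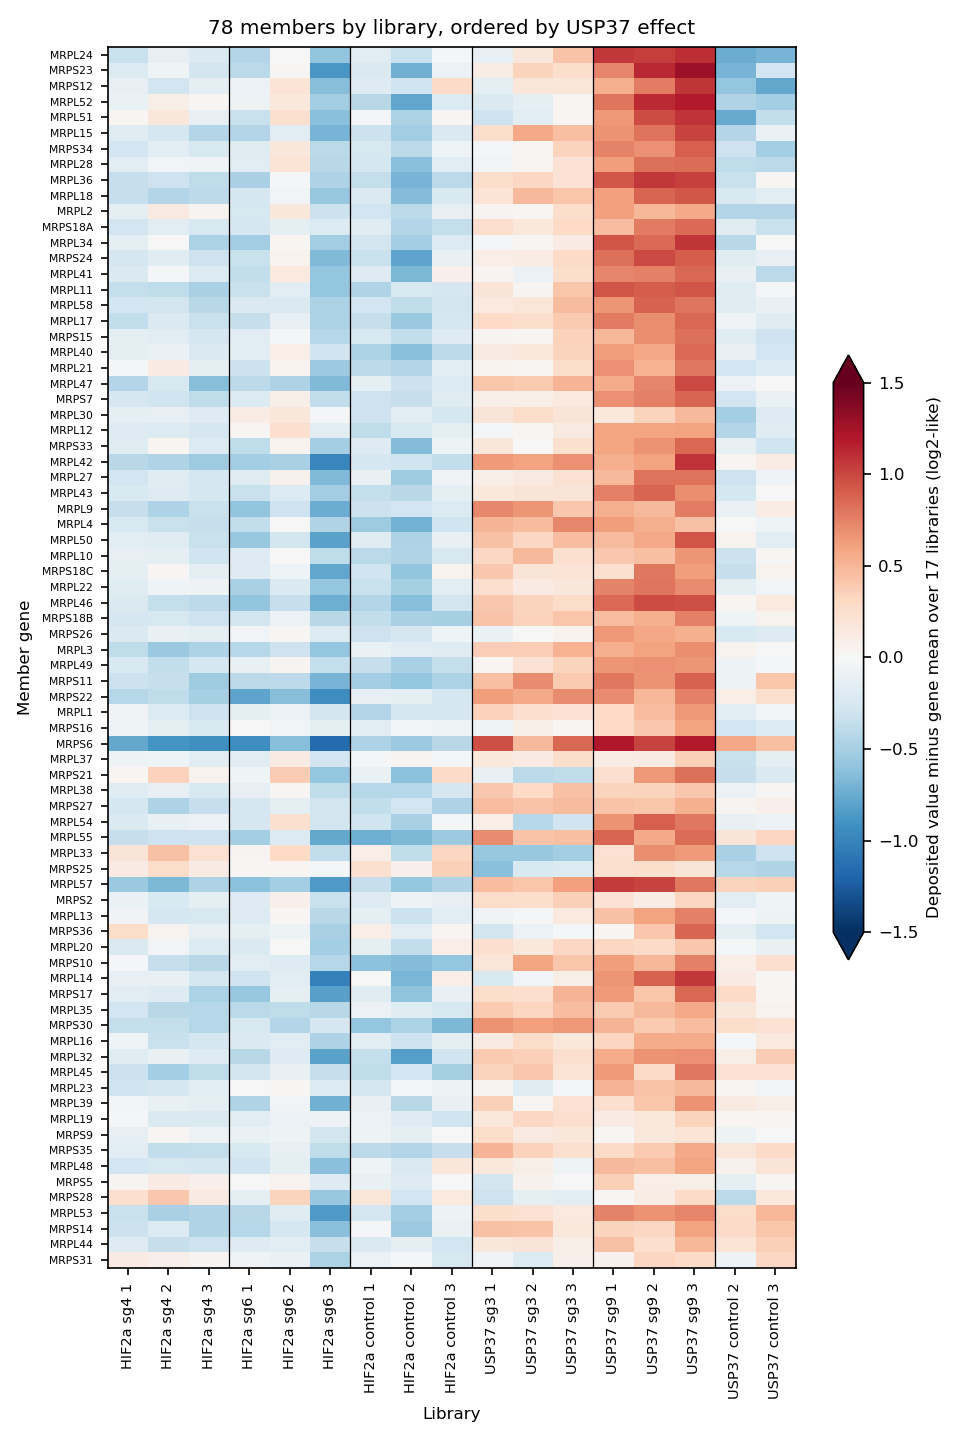
Deposited value of each of the 78 genes in each of the 17 libraries, minus the gene's mean over all libraries (log2-like, red above and blue below), with genes ordered by the log2 fold change of the mean of the USP37 guides. All 78 genes are above their mean in each of the 3 sg9 libraries, and 0 of 78 are above it in HIF2a sg6 library 3.

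The guides differed in size of effect. With sg9, 67 of 78 members rose and none fell, where 24.6% of all genes tested were called higher and 23.2% lower. With sg3, 36 of 78 rose and none fell, where 16.8% were called higher and 18.4% lower. The median log2 fold change was 0.68 with sg9 and 0.32 with sg3. Both guides are set against the same control libraries, so their calls are not independent. Called higher with each guide were 35 members, where 11.4% of all genes tested were. With sg9 alone 32 members were called, with sg3 alone 1 (MRPS30) and with neither 10. Counts without 1 control library, given next, have no share of all genes tested beside them. Without USP37 control library 2, 18 members were called with each guide, and without control library 3, 25 were.

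Between the guides themselves, 45 of 78 members were higher with sg9 than with sg3 and none was lower, where 16.6% of all genes tested were called higher and 14.2% lower. The median difference was 0.44 on the log2 scale. Within replicate numbers 1, 2 and 3 it was 0.38, 0.44 and 0.48, with sg9 above sg3 for 63, 65 and 74 of 78 members. Over all libraries, sg9 was above sg3 for 71 of 78 members and for 6463 of 12484 genes tested. Genes of under 1000 nucleotides that are not members had a median difference of 0.41 on the log2 scale. MRPL52 differed by 1.14 (SE 0.15, adjusted p = 3.57e-05 by limma), MRPL33 by 1.07 (SE 0.16, adjusted p = 0.000103) and MRPL51 by 1.06 (SE 0.18, adjusted p = 0.00021) on that scale. MRPL33, the relative of a small bacterial large-subunit protein, had 9.80, 10.26 and 10.21 with sg9 and 9.001, 9.001 and 9.05 with sg3, against 9.08 and 9.26 in the control. Its sg3 libraries all lay below both control libraries, although its log2 fold change with sg3 was -0.15 (adjusted p = 0.546).

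**Figure D3:**
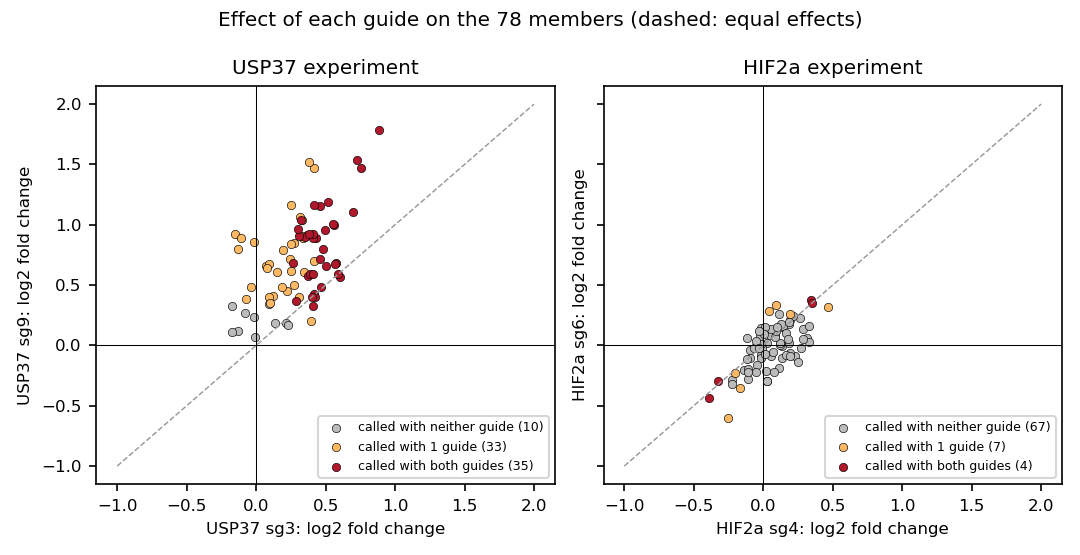
Log2 fold change of each of the 78 genes with one guide (x axis) and the other (y axis) against the control of the same experiment, for USP37 (sg3 and sg9) and HIF2a (sg4 and sg6); color gives the number of guides with which the gene was called, and the dashed line marks equal effects. For USP37 35 genes were called with both guides and most lie above the line; for HIF2a 4 were called with both and the points gather around 0.

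Transcript length moved with the sg9 value. Mitochondrial ribosomal protein transcripts are short, with a median of 1137 nucleotides against 2616 for the 11564 genes tested that have a length. With sg9, genes of under 1000 nucleotides that are not members had a median log2 fold change of 0.47, and the 28 members in that range had one of 0.91. With sg3, the same classes had medians of 0.02 and 0.32. Across genes, which are not independent replicates, the rank correlation of length with the log2 fold change was -0.38 for sg9 and -0.01 for sg3. Over the 78 members it was -0.36 for sg9 and 0.04 for sg3. In every length class the median of the members lay above that of other genes with both guides.

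With a smooth trend on transcript length taken out of every library, an alternative chosen after seeing the data, 53 members rose and none fell in the mean of the USP37 guides (median 0.39). Likewise 53 rose with sg9 (median 0.44) and 48 with sg3 (median 0.34), and none fell with either. Between the guides, 26 members were then higher with sg9 and 8 lower, with a median difference of 0.11. The shares of all genes tested called in that fit are not given here, so its counts cannot be set against them. What sets the relation to length in the sg9 libraries was not tested.

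**Figure D4:**
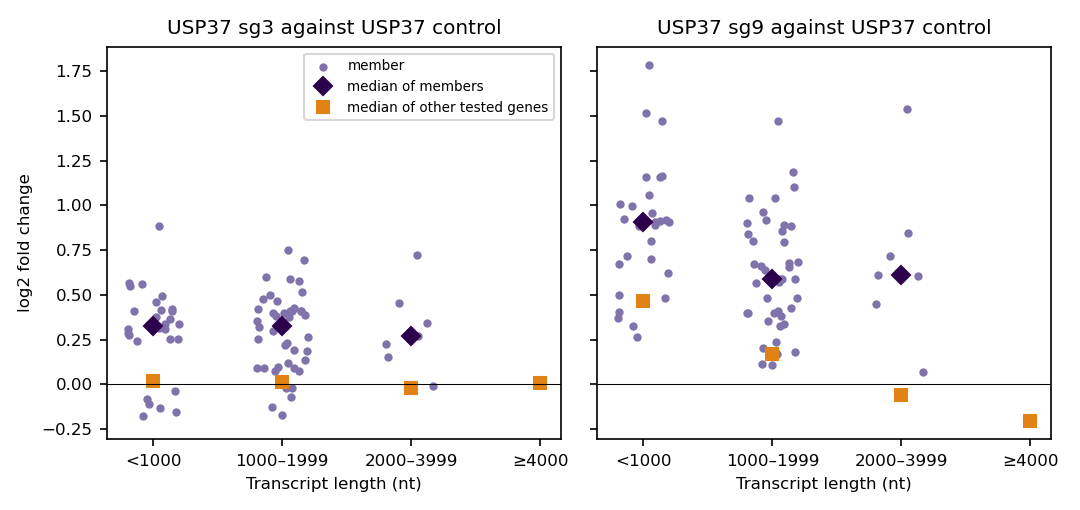
Log2 fold change against the USP37 control by class of transcript length (nucleotides) for sg3 and sg9; dots are members, diamonds their median and squares the median of all other genes tested in the class. With sg9 the squares run down from 0.47 for the shortest class to -0.21 for the longest, whereas with sg3 they stay between -0.02 and 0.02, and no member is as long as 4000 nucleotides.

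The other genes of mitochondrial translation were followed as lists, to be read against the 22.4% of all genes tested that were called higher and the 21.9% called lower in the mean of the USP37 guides. Of 5 mitochondrial ribosomal proteins whose symbols do not follow the naming rule, 4 rose in the mean of the USP37 guides and none fell (median log2 fold change 0.63), among them AURKAIP1 (0.83), GADD45GIP1 (0.71) and DAP3 (0.63). Of 28 assembly factors 16 rose and none fell (median 0.31), led by C1QBP (1.11), MPV17L2 (0.95) and NGRN (0.93). Of 16 translation factors and mRNA-handling proteins 7 rose and 2 fell (median 0.24). Those that rose included SLIRP, which stabilises mitochondrial mRNAs (1.07), TACO1, the translational activator of cytochrome c oxidase subunit I (0.64), and GFM1, the elongation factor G (0.59). Those that fell were the release factor gene MTRF1 (-0.53) and MTFMT, which formylates the initiator methionine (-0.35).

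Of 20 mitochondrial aminoacyl-tRNA synthetases 6 rose and 2 fell (median 0.13), not far from the share of rises over all genes tested, with HARS2 (0.86) and MARS2 (0.74) the highest and IARS2 (-0.41) and PARS2 (-0.41) the lowest. Among 16 regulators of mitochondrial biogenesis and transcription 9 rose and 3 fell (median 0.29). MYC rose by a log2 fold change of 0.90 (SE 0.09, adjusted p = 3.24e-07 by limma), PPRC1, a coactivator of the PGC-1 family, by 0.71, and TFB2M, the mitochondrial transcription initiation factor, by 0.67. MXI1, an antagonist of MYC, fell (-0.91), as did the coactivator gene PPARGC1A (-0.68) and GABPA (-0.31). Genes of mitochondrial DNA were not analysed here.

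Cytosolic ribosomal protein genes and nuclear-encoded respiratory chain subunits were set beside the members for comparison. In the mean of the USP37 guides 58 of 83 cytosolic ribosomal protein genes rose and none fell (median 0.42), and 45 of 75 respiratory chain genes rose and 1 fell (median 0.46). With sg9, 73 of 83 rose and none fell in the cytosolic list (median 0.71), and 65 of 75 rose and 1 fell in the respiratory chain list (median 0.77). With sg3, 6 of 83 rose and none fell (median 0.03), and 6 of 75 rose and 3 fell (median 0.06), beside 36 rises and no fall among 78 mitochondrial ribosomal protein genes (median 0.32). The lists given above also held rises with sg3, where 16.8% of all genes tested were called higher and 18.4% lower. Of 28 assembly factors 12 rose and none fell (median 0.31), and of 16 regulators 8 rose and 3 fell (median 0.25). Of 16 translation factors 6 rose and 1 fell (median 0.20), and of 20 aminoacyl-tRNA synthetases 4 rose and 1 fell (median 0.11). Of the 5 proteins outside the naming rule 3 rose and none fell (median 0.34). With transcript length taken out, the counts with sg3 were 13 rises and 1 fall of 83 cytosolic ribosomal protein genes, and 16 rises and 5 falls of 75 respiratory chain genes. Beside these stood 48 rises and no fall of 78 mitochondrial ribosomal protein genes. Shares over all genes tested are not given for that fit. The difference between the lists was not tested.

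With guides against HIF2a, the mitochondrial ribosomal protein genes moved little as a group. In the mean of both guides 4 of 78 rose and 4 fell, where 16.1% of all genes tested were called higher and 14.5% lower. The median log2 fold change was 0.05, against -0.0045 for all genes tested. The mean over the 78 genes was 9.30, 9.31 and 9.23 in the sg4 libraries and 9.21, 9.42 and 8.99 in the sg6 libraries, against 9.24, 9.09 and 9.32 in the HIF2a control libraries. The 3 groups overlapped, and the sg6 libraries held both the highest and the lowest value. Within replicate numbers 1, 2 and 3 the median difference of the guides from the control was 0.03, 0.28 and -0.20, so its sign varied between numbers. Without HIF2a sg6 library 3, 11 members were called higher and 4 lower, and without HIF2a control library 1, 2 were called higher and 3 lower. Shares of all genes tested are not given for those fits either.

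With sg4 taken alone 3 members rose and 2 fell, where 13.2% of all genes tested were called higher and 12.1% lower. With sg6 taken alone 5 rose and 5 fell, where 15.2% were called higher and 13.8% lower. Against the shared control, 2 members (MRPL40 and MRPS10) rose and 2 (MRPS6 and MRPL3) fell with each guide, where 9.04% and 7.48% of all genes tested did. Between the guides 1 member, MRPS22, was lower with sg6 than with sg4 and none was higher, where 4.36% of all genes tested were called lower and 4.86% higher. The difference for MRPS22 was -0.35 (SE 0.10, adjusted p = 0.0248 by limma). It was no longer called in 8 of 21 alternatives, where its adjusted p reached 0.154, among them the replicate block (0.052) and the fits without sg4 library 1, 2 or 3 or without sg6 library 1 or 3. Without sg6 library 2, 8 members were lower with sg6.

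The 4 members that rose with the HIF2a guides also rose with the USP37 guides. MRPL40, a large-subunit protein, had 9.26, 9.29 and 9.18 with sg4 and 9.23, 9.49 and 9.09 with sg6, against 8.92, 8.77 and 9.01 in the HIF2a control. All guide libraries were above all control libraries, and its log2 fold change was 0.36 (SE 0.10, adjusted p = 0.00642 by limma), beside 0.65 with the USP37 guides. MRPS10, a small-subunit protein with a bacterial relative, rose by 0.35 (SE 0.10, adjusted p = 0.00982), beside 0.34 with the USP37 guides. MRPL52 rose by 0.39 (SE 0.13, adjusted p = 0.0287) and MRPS30 by 0.23 (SE 0.07, adjusted p = 0.0213). The calls of MRPL52, MRPL40 and MRPS30 were lost in 8, 2 and 3 of 21 alternatives, with a limma adjusted p of up to 0.229, 0.0648 and 0.125. MRPL52 had 0.23 without HIF2a control library 2, and MRPS30 had 0.18 without HIF2a control library 3. All genes tested on chromosome 14 (MRPL52) and chromosome 22 (MRPL40) had medians of 0.12 and 0.13 with the HIF2a guides. On chromosome 6 (MRPS10) and chromosome 5 (MRPS30) these were -0.0011 and -0.0098.

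The 4 members that fell with the HIF2a guides rose with the USP37 guides. MRPS22, a small-subunit protein in which mutations cause a respiratory chain deficiency, had 9.09, 9.13 and 9.02 with sg4 and 8.72, 8.88 and 8.58 with sg6, against 9.39, 9.36 and 9.25 in the HIF2a control. In the USP37 experiment it had 10.14, 10.09 and 10.22 with sg3 and 10.23, 10.02 and 10.27 with sg9, against 9.61 and 9.76 in the control. Each set of guide libraries was separate from its control, below it for HIF2a and above it for USP37. Its log2 fold changes were -0.43 (SE 0.08, adjusted p = 0.000487) for HIF2a and 0.47 (SE 0.10, adjusted p = 0.000537) for USP37. MRPS22 shares exon sequence with COPB2 on the opposite strand.

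MRPL3, a large-subunit protein near the peptidyl transferase centre, had 10.71, 10.53 and 10.61 with sg4 and 10.66, 10.78 and 10.51 with sg6, against 10.98, 10.93 and 10.91 in the HIF2a control. It fell by 0.31 on the log2 scale (SE 0.07, adjusted p = 0.00285 by limma) and rose by 0.49 with the USP37 guides. MRPS22 and MRPL3 lie on chromosome 3, where the median log2 fold change of all 693 genes tested with the HIF2a guides was -0.22. With chromosome medians taken out their values were -0.20 and -0.08 and neither was called. MRPS6 fell by 0.41 (SE 0.11, adjusted p = 0.0056) and rose by 0.44 with the USP37 guides, and it shares exon sequence with SLC5A3 on the same strand. MRPL35 fell by 0.22 (SE 0.07, adjusted p = 0.0302) and rose by 0.33 with the USP37 guides. Its HIF2a call was lost in 9 of 21 alternatives, with an adjusted p of up to 0.158, among them the replicate block (0.0588) and the fits without sg4 library 2 or 3 or HIF2a control library 1 or 2.

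**Figure D5:**
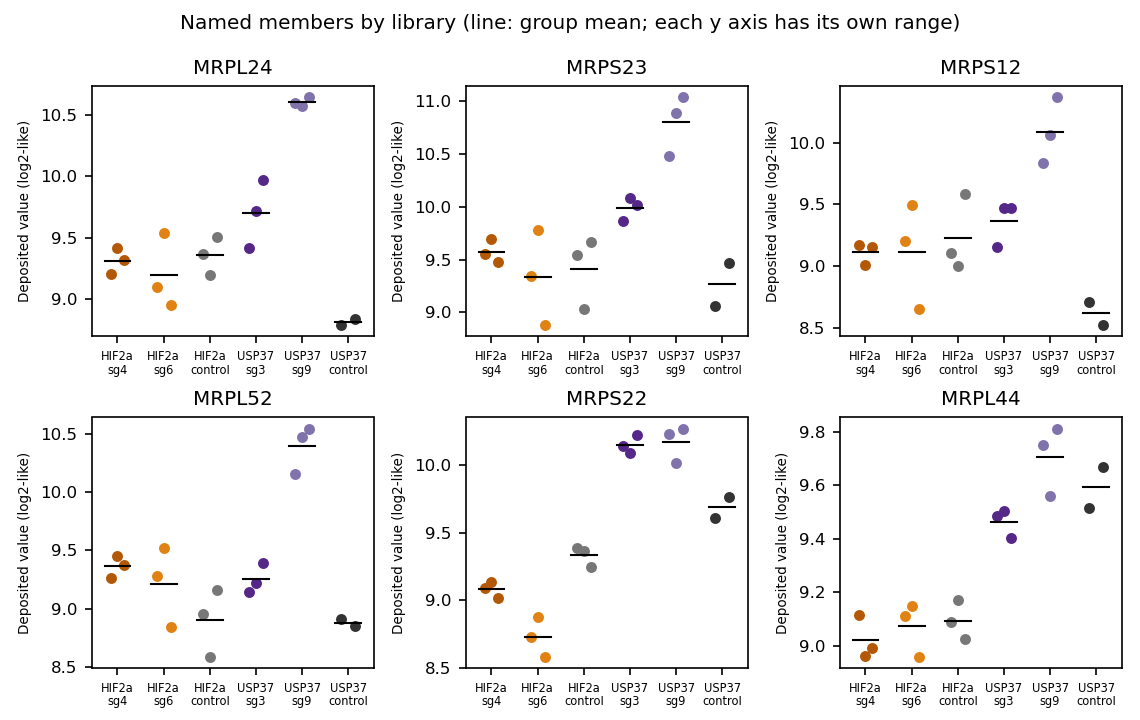
Deposited values (log2-like) of 6 mitochondrial ribosomal protein genes in every library, by group; points are libraries, lines group means, and each panel has its own y axis. MRPL24, MRPS23, MRPS12 and MRPL52 are highest with USP37 sg9, MRPS22 is below its control with both HIF2a guides and above its control with both USP37 guides, and for MRPL44 the sg3 libraries lie below both USP37 control libraries while the other guides overlap their control.

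With the HIF2a guides the other lists are to be read against the 16.1% of all genes tested that were called higher and the 14.5% called lower. Of 83 cytosolic ribosomal protein genes 1 rose and 11 fell (median -0.09), and of 75 respiratory chain genes 6 rose and 4 fell (median 0.03). None of the 5 mitochondrial ribosomal proteins outside the naming rule was called. Of 28 assembly factors 2 rose and 1 fell, of 16 translation factors 2 rose and 2 fell, and of 20 aminoacyl-tRNA synthetases 1 rose and 1 fell. The elongation factor gene TUFM rose by a log2 fold change of 0.38 and OXA1L, the insertase that receives the nascent chains, by 0.34. Of 16 regulators 4 rose and 4 fell. PPARGC1A rose by 0.90, PPARGC1B by 0.41 and ESRRA by 0.36, all on the log2 scale. MTERF1 (-0.52), GABPA (-0.41) and MXI1 (-0.37) fell, as did MYC (-0.28).

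The difference between the USP37 effect and the HIF2a effect was tested directly. For 46 of 78 members the USP37 effect was higher and for none was it lower, where 19.6% of all genes tested were called higher and 19% lower. The median difference was 0.46 on the log2 scale. It was largest for MRPL24 (1.44, SE 0.18, adjusted p = 3.08e-06 by limma), MRPS12 (1.23, SE 0.23, adjusted p = 0.000351) and MRPS23 (1.09, SE 0.25, adjusted p = 0.0016). Without USP37 control library 2 the count was 28, and without control library 3 it was 38.

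The control groups of the experiments carried the same guide label and differed too. Of 78 members 22 had higher values in the USP37 control libraries than in those of HIF2a and 3 had lower ones, where 20.1% of all genes tested were called higher and 20.4% lower. The median difference was 0.18 on the log2 scale. MRPS6 was at 10.11 and 9.98 in the USP37 control against 9.07, 8.98 and 9.11 in the HIF2a control, a difference of 0.99 (SE 0.14, adjusted p = 1.29e-05 by limma). MRPL55 differed by 0.91 (SE 0.14, adjusted p = 4.55e-05) and MRPS30 by 0.83 (SE 0.09, adjusted p = 1.24e-06). MRPS25 (-0.67), MRPS12 (-0.61) and MRPL24 (-0.54) were the members lower in the USP37 control. For MRPL24 the USP37 control libraries, at 8.79 and 8.84, were therefore also below all 3 HIF2a control libraries, at 9.37, 9.20 and 9.51. Of the 59 members that rose with the USP37 guides, 15 were also higher and 3 were lower in the control of that experiment than in the HIF2a control, and 41 did not pass that test. Levels set across the experiments cannot be told apart from differences between the cultures or batches of those experiments.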

How the data were processed

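RNA-seq libraries of 786-O cells (17 in 6 groups) were analysed from 1 table of 27315 genes. The authors deposited log2-like variance-stabilised values corrected for batch, per the file headers, with the batch variable not stated there. Tools named by the submitters' processing notes are cutadapt, STAR 2.5.2b, Salmon and DESeq2, with build hg19. Replicate numbers 1, 2 and 3 had the same mean in every gene, within 6.4e-14, which is what removal of a replicate term leaves. Standard errors here are not enlarged for that step, and p-values tend to be too small. Because the USP37 control has no library numbered 1, equal means by number may also shift the values themselves. CD3E, high in USP37 control library 3, had the same mean of 5.14 and SD of 0.18 in every other group. The size of such shifts in the members was not estimated. Reads and depth cannot be had from these values, so no counting interval is given.

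Groups came from sample titles. Genes were kept where their mean was at least 1 log2 unit above 5.14, the first percentile of gene means, which left 12484. Group means were fitted with limma 3.58.1 in R 4.3.3 (empirical Bayes with an intensity trend, 11 residual degrees of freedom), p-values were adjusted by Benjamini-Hochberg over all genes tested, and the threshold was 0.05. The code was tested on simulated data. Named genes were up to 5 largest rises and falls among members called in each experiment, those called in both experiments, up to 3 per direction in the other comparisons, and members named for their role. Members and lists were chosen with earlier results of these data known. Alternatives were replicate block, filters, centring, quantile normalisation, trend, weights, chromosome medians, transcript length and GC content, and libraries left out. Transcript lengths and shared exons came from GENCODE 29, on another build than hg19: 28 members share exon sequence with another gene of the table, and 34 have named pseudogenes, so reads may be split between copies. Promoters came from RefSeq (GRCh38.p14).

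The labels do not say that a replicate number marks a shared batch, so the main fit has no replicate block. Correlations of same-numbered libraries cannot decide this, because the removed replicate term itself pushes them below 0.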

Additional observations from a re-analysis of the deposited data

Results flagged for a closer look

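For 19 of the 30 named members the effect of the USP37 guides on the log2 scale was higher than that of the HIF2a guides by limma's test of the difference itself (adjusted p under 0.05), where 19.6% of all genes tested were called higher. The named members include those chosen for the size of this difference or of the effects behind it, so the count describes a selected set; over all 78 members it was 46. The difference was 1.44 for MRPL24, 1.23 for MRPS12, 1.09 for MRPS23, 0.90 for MRPS22, 0.89 for MRPL51, 0.85 for MRPS6, 0.80 for MRPL3, 0.80 for MRPS34 and 0.75 for MRPL11. It was 0.62 for MRPS18A, 0.59 for MRPS7, 0.56 for MRPL52, 0.54 for MRPL35, 0.52 for MRPS25, 0.49 for MRPL22, 0.48 for MRPS16, 0.46 for MRPL12, 0.40 for MRPL10 and 0.31 for MRPS27. For MRPS22, MRPS6, MRPL3 and MRPL35 the difference joins a rise with the USP37 guides to a fall with the HIF2a guides. MRPL52 rose with both, and for the rest of these members the HIF2a effect alone did not pass the test. The experiments have separate controls, and 22 of 78 members also differed upward and 3 downward between the USP37 control and the HIF2a control. No group had enough libraries for a test of single outlying values.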

How the results depend on the processing

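The median USP37 change was positive in all 20 alternatives, with 53 to 65 members called, or 46 to 61 with 1 library left out, against 59. Its median of 0.48 was 0.39 with transcript length taken out and 0.40 with length and GC content taken out, both chosen after seeing the data, and 0.45 to 0.52 with 1 library left out. Members called with both USP37 guides numbered 35, and 18 to 34 with 1 library left out. The comparison of sg9 with sg3 gave 45, and 39 to 45 with 1 library left out, but 34 to 50 in the other alternatives. With transcript length taken out, 26 members were higher with sg9 and 8 lower, with a median difference of 0.11 in place of 0.44. With length and GC content taken out, these were 24, 10 and 0.13. Shares of all genes tested are not given for those fits.

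The few HIF2a calls varied more. In the mean of the guides 8 members were called, 5 with each experiment fitted alone, 5 with chromosome medians taken out, 13 with length and GC content taken out, and 5 to 15 with 1 library left out. The median of 0.05 ranged from -0.04 to 0.10 with 1 library left out. Members called with both HIF2a guides numbered 4, but 2 with chromosome medians taken out, 1 without the 3 far libraries (HIF2a sg6 2 and 3, HIF2a control 2), 8 with length taken out and 0 to 4 with 1 library left out. The 1 call of sg6 against sg4, MRPS22, became 0 with the replicate block, with array weights and without the 3 far libraries, 3 with length taken out, 3 with length and GC content taken out, and 0 to 8 with 1 library left out, the 8 without HIF2a sg6 library 2. The difference of effects gave 46, and 28 to 56 with 1 library left out, and the comparison of controls 25, and 18 to 31.

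With the replicate block the counts were 7 for HIF2a and 57 for USP37, and beside MRPS22 only MRPL35 in the HIF2a comparison lost its call among named genes. Whether the numbers pair the libraries cannot be read from these values, from which the replicate term had been removed. MRPL44, not called in any of these fits, had USP37 values of -0.083 to 0.070 with 1 library left out, being positive at 0.0031 with chromosome medians taken out and at 0.0088, 0.030 and 0.070 without sg3 replicate 3, sg9 replicate 2 and USP37 control replicate 3. MRPL23, not called in the reported fit but called without the 3 far libraries and without sg3 replicate 2, had -0.031 with length and GC content taken out and -0.024 with length taken out. The cause of these shifts was not tested. Fitting each experiment alone cannot give the comparisons across experiments. Values near the low end of the table do not limit these genes, whose lowest value was 6.78.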
